A study of Mus musculus with 12 samples.

Results

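S100a4, S100a6, S100a10, S100a11, Anxa1, Anxa2, Anxa5, Anxa6, Lgals1 and Lgals3 code for 4 S100 proteins, 4 annexins and 2 galectins. They were taken by symbol and are 10 of the 55228 genes of the expression table. No measured value entered this rule, but the members were chosen with earlier results of these data known. All 10 had a mean TPM (transcript abundance relative to transcript length and library total) of at least 1 over the 12 libraries and were among the 15043 genes tested. RNA was sequenced from mouse regulatory T cells (Tregs) in 4 groups of 3 libraries. EV no IL-2 Tregs carried the empty retroviral vector with the surface reporter Thy1.1, and were washed out of IL-2 on day 4 after activation. EV+IL-2 Tregs carried the same vector and stayed in medium with IL-2. 1G12t and 3A10t Tregs carried, ahead of the reporter, a construct that tethers the orthogonal IL-2 variant 1G12 or 3A10 to a mutated IL-2 receptor β chain (orthoIL-2Rβ) through a linker from CD25, and were kept without IL-2. All cells were activated, transduced on day 2, cultured for 5 more days after day 4 and sorted as Thy1.1+ on day 9.

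The labels name lymph nodes as the source and the study's methods name lymph nodes and spleens. CD4+ cells of 16 NOD.Foxp3-GFP mice were pooled, divided into 3 parts, sorted as Foxp3.GFP+CD25+ on 3 machines and activated apart. Replicates were therefore cultures of 1 pool and not animals, so that p-values measure the spread between these cultures. Mean Foxp3, the lineage factor of Tregs, lay between 411.9 scaled TPM in 3A10t and 507 in EV+IL-2. That difference passed (log2 fold change −0.31, adjusted p = 0.0192, limma). The differences of 3A10t from EV no IL-2 (−0.28, adjusted p = 0.0821) and from 1G12t (−0.29, adjusted p = 0.0595) did not pass. All 3 3A10t libraries were below those of each other group. Of the 15043 genes tested, 2713 lay below in this way against EV+IL-2, 1817 against EV no IL-2 and 1878 against 1G12t. Scaled TPM are the deposited TPM divided by a factor per library, and these factors ran from 0.846, for 3A10t replicate 2, to 1.08. Fewer genes had a value above 0 in the EV+IL-2 libraries, 30393 to 36239, than in the other libraries, 37930 to 43285, and the part of this in the results was not tested.

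S100 proteins are small calcium-binding proteins that act as pairs and bind target proteins inside the cell. Annexins bind membrane phospholipids in the presence of calcium, and some of them carry an S100 dimer, so that annexin A2 with S100A10 forms a complex that joins membranes to the actin skeleton. Galectins bind β-galactosides on cell-surface glycoproteins, and galectin-1 and galectin-3 act on T cell adhesion and survival. In T cells these genes are known to be higher in activated and memory cells than in naive ones.

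The 4 S100 genes lie on mouse chromosome 3 in GENCODE M21 (GRCm38). S100a4 (chr3:90603771-90606045, plus strand) and S100a6 (chr3:90612882-90624181, plus strand) start 9.1 kb apart. S100a11 (chr3:93520488-93526287) and S100a10 (chr3:93555080-93564643), both on the plus strand, start 2916.7 and 2951.3 kb from S100a4. The annexin genes are on chromosomes 19 (Anxa1, chr19:20373428-20390944, minus strand), 9 (Anxa2, chr9:69453620-69491795, plus strand), 3 (Anxa5, chr3:36448923-36475894, minus strand) and 11 (Anxa6, chr11:54979108-55033445, minus strand). Lgals1 (chr15:78926725-78930465) and Lgals3 (chr14:47367751-47386160) are on the plus strand.

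Promoters from RefSeq (GRCm38.p6, 250 bases before to 50 after the gene start) were given for 7 of the 10 genes, all but S100a10, Anxa6 and Lgals1. They were searched on both strands for the STAT motif TTCNNNGAA, since STAT5 carries the IL-2 signal, and for the AP-1 motif TGANTCA. The STAT letters were in 0 of the 7 windows and in 8.3% of all 32851 promoters. The AP-1 letters were in 2 of the 7, S100a11 and Anxa2, and in 7.81% of all. The stretches that hold them are shown with the AP-1 letters in capitals and each 5′ to 3′ on the plus strand. They lie at chr3:93520349-93520377 and chr3:93520447-93520475 for S100a11, where the motif begins 136 and 38 bases before the RefSeq start, and at chr9:69453577-69453605 for Anxa2, where it begins 95 bases before the start.
S100a11 upstream match: cagagacctgtTGAGTCAcagggactaca
S100a11 downstream match: cgggcacagccTGAGTCAggctgaggggc
Anxa2 match: tccaagttggaTGAGTCAcccagcagggt
The 100 bases before the S100a4 start, chr3:90603670-90603769, plus strand, held neither motif and are shown for comparison.
S100a4: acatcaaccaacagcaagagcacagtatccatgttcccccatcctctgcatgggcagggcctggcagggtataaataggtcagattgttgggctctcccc
A match of letters is a description of the window and not a binding site. Anxa2 and S100a4 were higher with IL-2 and S100a11 was not called, and a link of the letters to this response was not tested.

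TPM are per transcript length, so levels may be set side by side between genes. S100a10 was the most abundant of the 10 with a mean of 1423 TPM over the 12 libraries, which placed it at rank 66 of 15043. Lgals1 came next at rank 175, then Anxa6 at 238, S100a4 at 372, S100a6 at 421, Anxa2 at 440 and Anxa5 at 684. Lgals3, S100a11 and Anxa1 were lower, at ranks 1912, 2005 and 5013. Together the 10 genes took 0.357% to 0.377% of the TPM of EV libraries without IL-2 and 0.526% to 0.558% of those of the EV+IL-2 libraries. The shares were 0.355% to 0.369% in 1G12t and 0.393% to 0.407% in 3A10t, so the EV+IL-2 and 3A10t libraries stood above both other groups.

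**Figure D1:**
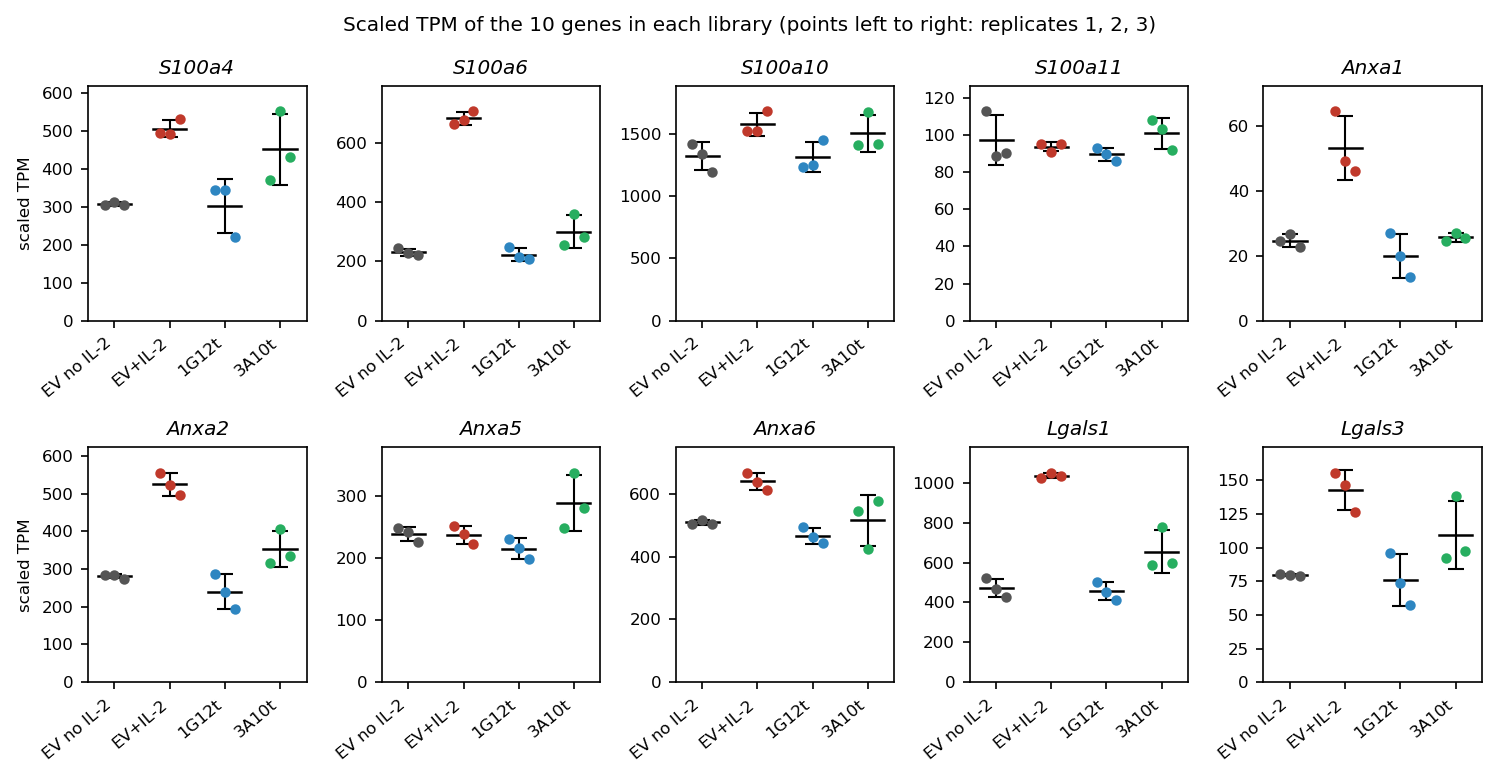
Scaled TPM (y axis, from 0, with its own scale for each gene) of the 10 genes in the 4 groups; points are libraries and the bar and whiskers are the mean and SD of 3. EV+IL-2 had the highest mean for 8 genes, whereas S100a11 and Anxa5 were highest in 3A10t.

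IL-2 kept in the medium of EV Tregs was set against its withdrawal, to ask what wild-type IL-2 does to these genes. In EV+IL-2 against EV no IL-2, 6 of the 10 genes were higher and 0 lower at an adjusted p under 0.05, where 13.3% of all genes tested passed and 8.17% of all genes tested passed upward. The 6 were S100a4, S100a6, Anxa1, Anxa2, Lgals1 and Lgals3. The median log2 fold change of the 10 was 0.77, against −0.014 over all genes tested. In bulk RNA, more cells of a kind cannot be told apart from more RNA per cell.

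S100a6, calcyclin, changed most of the 10. Without IL-2 it was at 244, 229 and 220.5 scaled TPM, and with IL-2 at 663, 677 and 707. The groups did not overlap and the means stood 2.95-fold apart (log2 fold change 1.56 ± 0.12 SE, adjusted p = 1.46e-05, limma). S100a4, a binding partner of non-muscle myosin, was at 305, 314 and 305 without IL-2 and at 495, 491 and 532 with it. All 3 EV+IL-2 libraries were above (log2 fold change 0.71 ± 0.18 SE, adjusted p = 0.0214), but the call was lost without a filter on low TPM and when any one of the 6 libraries compared was left out (adjusted p from 0.000292 to 0.0714 over all alternatives). S100a4 shares 47.4% of its 50-base stretches with the overlapping gene Gm42674, which is listed at 0 TPM.

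S100a10 and S100a11 did not pass. S100a10, the partner of annexin A2, was at 1419, 1338 and 1196 without and 1520, 1523 and 1680 with IL-2. Its groups did not overlap, but the difference was small (log2 fold change 0.26, 95% interval 0.044 to 0.47, adjusted p = 0.113). S100a11, a partner of annexin A1, was at 113, 88.6 and 90.4 without and 95.1, 90.9 and 95 with IL-2, and the groups overlapped (log2 fold change −0.045, 95% interval −0.27 to 0.18). Reads of S100a11 are uncertain, since 41.1% of its stretches also occur in 3 other genes, of which the highest, Gm12854, had a mean of 5.82 TPM.

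Among the annexins, Anxa1 and Anxa2 rose. Anxa1 codes for a protein best known as an anti-inflammatory mediator. It was at 24.6, 26.6 and 22.7 scaled TPM without IL-2 and at 64.6, 49.2 and 46.2 with it, replicate 1 being the highest (log2 fold change 1.07 ± 0.21 SE, adjusted p = 0.0057). Anxa2 was at 283, 284 and 274 without and at 555, 522 and 496 with IL-2 (log2 fold change 0.90 ± 0.13 SE, adjusted p = 0.00119). Neither gene overlapped between the groups. Both overlap a gene on the opposite strand, 1500015L24Rik at 0.461 mean TPM and Gm16144 at 0.445, and no strand information is stated for the counting.

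Anxa5, whose protein binds phosphatidylserine, was at 248, 243 and 227 without IL-2 and at 252, 239 and 222 with it, and the groups overlapped throughout (log2 fold change −0.010, 95% interval −0.25 to 0.23). Anxa6, which binds membranes through a duplicated annexin core, was at 505, 518 and 504 without and at 667, 639 and 612 with IL-2. All 3 EV+IL-2 libraries were above, and the difference missed the adjusted threshold (log2 fold change 0.33 ± 0.10 SE, adjusted p = 0.0631). It passed in 4 of the 22 alternatives, with adjusted p from 0.00284 to 0.674 and log2 fold changes from 0.12 to 0.36. It met the threshold that the study used, an unadjusted p under 0.01 with a log2 fold change beyond 0.25, which 7 of the 10 genes and 15.1% of all genes did. The study applied that threshold to DESeq2 results, whereas here it was applied to limma on scaled TPM, so the genes that meet it may differ.

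Both galectins rose. Lgals1 was at 522, 465 and 429 without and at 1024, 1051 and 1034 with IL-2, which is 2.20-fold between the means with no overlap (log2 fold change 1.14 ± 0.12 SE, adjusted p = 0.000106). Lgals3 was at 80.2, 79.9 and 79.1 without and at 156, 146 and 127 with IL-2 (log2 fold change 0.83 ± 0.19 SE, adjusted p = 0.0139). Its groups did not overlap, and the call was lost when EV no IL-2 replicate 3, EV+IL-2 replicate 1 or EV+IL-2 replicate 2 was left out (adjusted p up to 0.0615). S100a6, Lgals1, Anxa1 and Anxa2 passed under all 22 alternatives run.

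Counted without a test, 8 of the 10 genes had all 3 EV+IL-2 libraries above all 3 EV no IL-2 libraries, where 19.6% of all genes did. The exceptions were S100a11 and Anxa5.

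**Figure D2:**
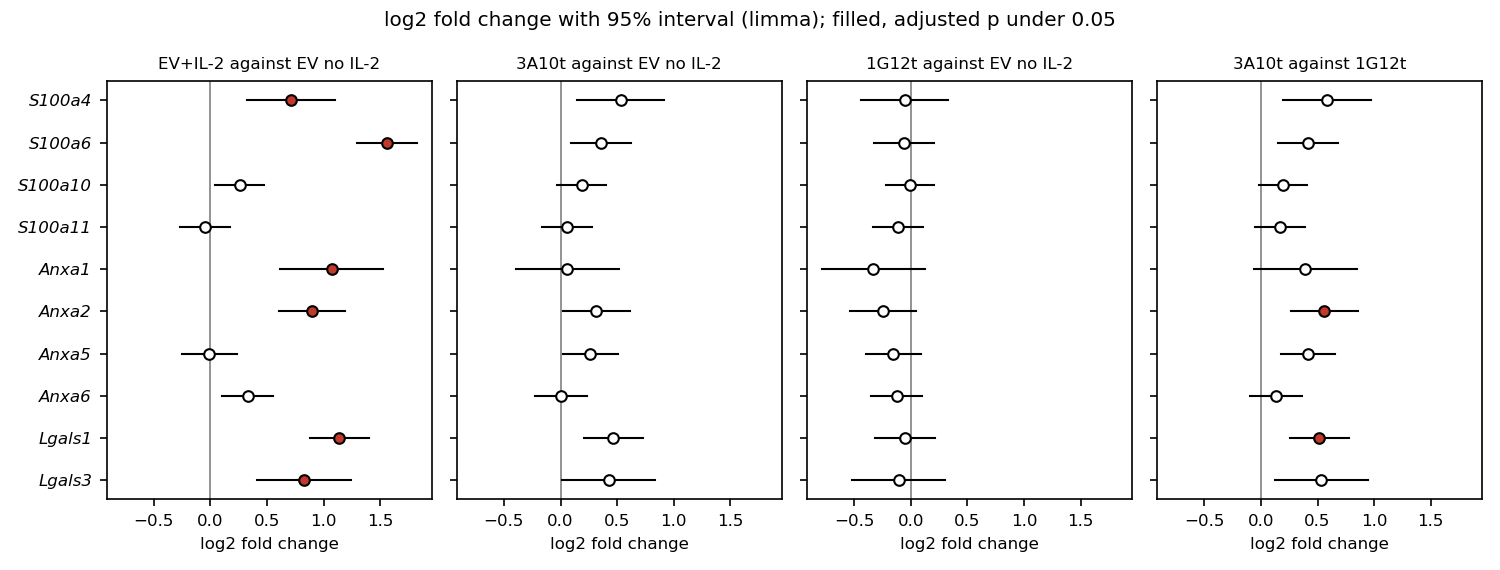
log2 fold change of the 10 genes (x axis) with its 95% interval from limma in 4 comparisons; filled points have an adjusted p under 0.05. In EV+IL-2 against EV no IL-2, 6 points are filled, in 3A10t against 1G12t 2 are, and in both tethered groups against EV no IL-2 0 are.

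3A10t Tregs were set against EV Tregs without IL-2 to ask whether the tethered 3A10 acts on these genes in the absence of IL-2. The comparison shares its control libraries with the one above. Of the 10 genes, 0 passed the adjusted threshold, where 2.05% of all genes tested did and 0.452% of all genes tested did so upward. An unadjusted p under 0.05 was reached by 6 of the 10, and by 26% of all genes. All 10 fold changes were above 0, against 52.9% over all genes, but only 7 were with the TPM as deposited and 8 after quantile normalization. The median was 0.29 on the log2 scale, against 0.026 over all genes tested.

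Lgals1 came nearest the threshold. It was at 587, 780 and 599 scaled TPM in 3A10t, where the EV libraries without IL-2 were at 429 to 522, and so above them in all 3 (log2 fold change 0.47 ± 0.12 SE, adjusted p = 0.0676), and it was the 1 gene of the 10 that met the study's threshold, as 9.5% of all genes did. S100a4 was at 370.5, 552 and 431 in 3A10t (log2 fold change 0.53 ± 0.18 SE, adjusted p = 0.109). S100a6 was at 254, 362 and 283 (log2 fold change 0.36 ± 0.12 SE, adjusted p = 0.113). In each of these 3 genes replicate 2 was the highest 3A10t library. Without 3A10t replicate 1, 4 of the 10 passed, S100a4, S100a6, Anxa5 and Lgals1, but so did 23.2% of all genes tested there. With protein-coding genes only, 1 of the 10 passed, Lgals1, and 6.37% of those tested.

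Anxa2 at 316, 406 and 333, Anxa5 at 249, 338 and 282 and Lgals3 at 92.5, 138 and 97.2 scaled TPM in 3A10t were also above EV no IL-2 in all 3 libraries. Their log2 fold changes were 0.32, 0.26 and 0.43, with adjusted p from 0.167 to 0.182. The 6 genes without overlap stand against 13.3% of all genes with 3A10t above. Anxa1 was at 24.4, 27 and 25.6 and overlapped the EV controls (log2 fold change 0.059, 95% interval −0.40 to 0.51). Anxa6 was at 547, 424 and 576, with replicate 2 the lowest, and its log2 fold change of 0.0058 (95% interval −0.22 to 0.23) fell below 0 with the TPM as deposited and after quantile normalization. S100a10 at 1411, 1676 and 1416 and S100a11 at 108, 103 and 91.8 overlapped EV no IL-2 as well.

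The 3A10t libraries spread more than the others. The median within-group SD of the 10 genes was 0.23 on the log2 scale in 3A10t, against 0.14 in 1G12t, 0.071 in EV without IL-2 and 0.073 with it. Over all genes tested it was 0.22, 0.15, 0.12 and 0.11 in the same order. In 3A10t replicate 2, 9 of the 10 genes were above their group mean, with Anxa6 the exception. That library also had 13.5% of its TPM in its 10 most abundant genes, against 8.85% to 12% in the other 11, and the part of this in the values was not tested.

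1G12t was set against EV no IL-2 in the same way. Of the 10 genes 0 passed the adjusted threshold and 0 met that of the study, where 0.0199% and 1.36% of all genes did, and none of the 10 had an unadjusted p under 0.05, as 7.05% of all genes had. The 10 fold changes were all below 0, with a median of −0.11 against −0.0038 over all genes, but 1 was above 0 with the TPM as deposited and 4 were after quantile normalization. S100a4 was at 344, 344 and 220.1 in 1G12t, and its log2 fold change of −0.054 (95% interval −0.44 to 0.33) turned to 0.16 without replicate 3. Lgals1 was at 501, 454 and 412 (log2 fold change −0.051, 95% interval −0.31 to 0.21). Anxa6, at 494, 462 and 444, was the 1 gene with all 3 libraries below those of the EV controls (log2 fold change −0.13, adjusted p = 0.79), where 7.8% of all genes were. Anxa1 at 26.9, 20.0 and 13.4 had the widest interval (log2 fold change −0.33, 95% interval −0.79 to 0.12). In 1G12t replicate 3, 9 of the 10 genes were below their group mean, S100a10 at 1450 being the exception.

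The tethered variants were compared directly, since they differ in the orthogonal IL-2 that is tethered. In 3A10t against 1G12t, 2 of the 10 genes were higher and 0 lower, where 4.27% of all genes tested passed and 1.3% of all genes tested passed upward. Anxa2 was at 316 to 406 in 3A10t and at 195 to 286 in 1G12t (log2 fold change 0.56 ± 0.13 SE, adjusted p = 0.0454). Lgals1 was at 587 to 780 in 3A10t and at 412 to 501 in 1G12t (log2 fold change 0.52 ± 0.12 SE, adjusted p = 0.0431). Both were close to the threshold, and each passed in 7 of the 22 alternatives. The count ran from 0, with no filter, after quantile normalization or without 3A10t replicate 2 or 3 among others, to 6 without 3A10t replicate 1, where 27.6% of all genes tested passed.

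S100a4, S100a6 and Anxa5 also had all 3 3A10t libraries above the 1G12t libraries and met the study's threshold, as 12.3% of all genes did (log2 fold changes 0.58, 0.42 and 0.42, adjusted p 0.0702, 0.0641 and 0.0546). The 5 genes without overlap stand against 13.7% of all genes with 3A10t above. Lgals3 overlapped, since the 96.0 of 1G12t replicate 1 was above the 92.5 of 3A10t replicate 1. S100a10, S100a11, Anxa1 and Anxa6 overlapped and had adjusted p from 0.208 to 0.416.

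Against EV+IL-2, both tethered groups were lower for most of the genes that IL-2 raised. In 3A10t against EV+IL-2, 5 of the 10 were lower and 0 higher, where 23.4% of all genes tested passed and 13% of all genes tested passed downward. S100a6 (log2 fold change −1.20, adjusted p = 9.83e-05), Anxa1 (−1.01, adjusted p = 0.00614), Lgals1 (−0.67, adjusted p = 0.00292) and Anxa2 (−0.58, adjusted p = 0.011) were lower under all 22 alternatives. Anxa6 was the fifth (−0.32, adjusted p = 0.0463) and passed in 8 of the 22 alternatives (adjusted p from 0.0281 to 0.195). It was lost after quantile normalization, with eBayes without a trend, with only the 6 libraries, with the replicate number as a block (adjusted p = 0.0506) and when any 1 of 10 libraries was left out. S100a4 in 3A10t, at 370.5 to 552, overlapped the 491 to 532 of EV+IL-2 (log2 fold change −0.18, 95% interval −0.57 to 0.20), and Lgals3 overlapped too (−0.40, 95% interval −0.81 to 0.011).

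In 1G12t against EV+IL-2, 7 of the 10 were lower and 0 higher, where 20.6% of all genes tested passed and 10.9% of all genes tested passed downward. The 7 were S100a4, S100a6, Anxa1, Anxa2, Anxa6, Lgals1 and Lgals3, from −1.62 for S100a6 to −0.45 for Anxa6 on the log2 scale. Anxa6 was lost with the TPM as deposited and after quantile normalization, and the other 6 passed in all 22 alternatives. These comparisons share the EV+IL-2 libraries with the first one.

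Ratios between genes within a library do not depend on the library factor. The pairs were chosen after the values were seen, and the ratios are given with no test. S100a10 stood to Anxa2, its binding partner, at 5.00, 4.71 and 4.36 in EV Tregs without IL-2 and at 2.74, 2.92 and 3.39 in those with it. In 3A10t the ratio was 4.46, 4.12 and 4.25, and in 1G12t it was 4.31, 5.25 and 7.43, so it was lowest in the EV+IL-2 libraries and most variable in 1G12t. S100a6 stood to its neighbour S100a4 at 0.723 to 0.802 in EV Tregs without IL-2 and at 1.33 to 1.38 in those with it, whereas it was 0.655 to 0.687 in 3A10t and 0.623 to 0.939 in 1G12t. S100a6 thus exceeded S100a4 only in the 3 EV+IL-2 libraries.

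Lgals1 stood to Anxa5 at 1.89 to 2.10 in EV no IL-2, 4.07 to 4.65 in EV+IL-2, 2.08 to 2.17 in 1G12t and 2.13 to 2.36 in 3A10t. Anxa2 to Anxa5 was 1.14 to 1.21, 2.18 to 2.23, 0.985 to 1.24 and 1.184 to 1.27 in the same order. In both ratios the EV+IL-2 libraries were apart from the rest and the 3A10t libraries were near or within the range of the cells without IL-2. Anxa5 itself was nearly level in EV+IL-2 against EV no IL-2 (log2 fold change −0.010), so both ratios mainly restate the rise of Lgals1 and Anxa2. Lgals1 to Lgals3 did not set the EV+IL-2 libraries apart, at 6.58 to 8.17 in EV+IL-2 and 5.22 to 7.17 in 1G12t.

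**Figure D3:**
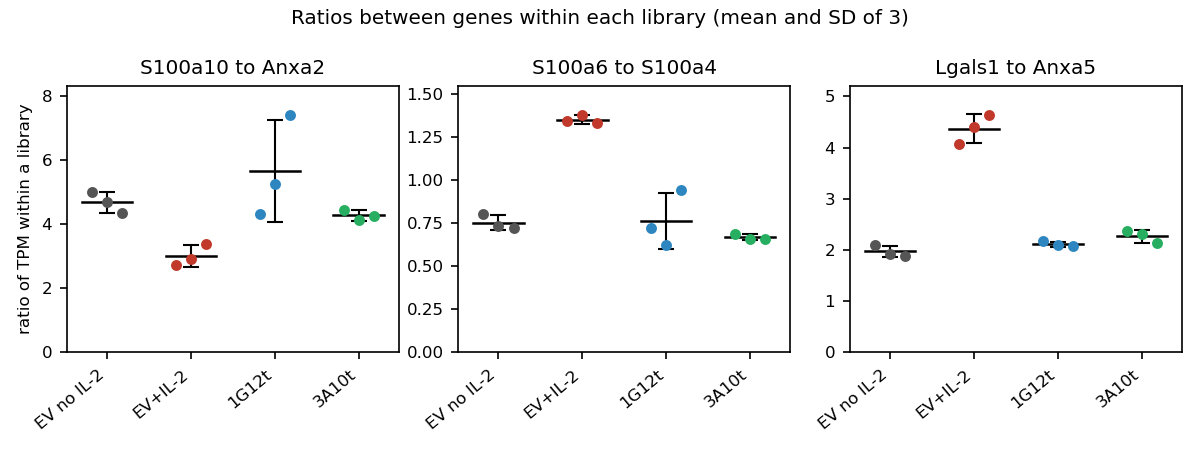
Ratio of TPM between 2 genes within each library (y axis, from 0) for 3 pairs in the 4 groups; points are libraries and the bar and whiskers are the mean and SD of 3. The EV+IL-2 libraries stand below the others for S100a10 to Anxa2 (2.74 to 3.39) and above them for S100a6 to S100a4 (1.33 to 1.38) and Lgals1 to Anxa5 (4.07 to 4.65).

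Over the 12 libraries, which share their scaling and fall into 4 groups, the log2 levels of S100a6 and Lgals1 correlated at r = 0.978 (Pearson), those of Anxa2 and Lgals3 at 0.971 and those of Anxa2 and Lgals1 at 0.970. These pairs had the highest values of all pairs of the 10 genes. With the group means removed these were 0.929, 0.986 and 0.801. On average the 10 genes deviated most from their group means in 1G12t replicate 3 (−0.19 on the log2 scale), 1G12t replicate 1 (0.18) and 3A10t replicate 2 (0.17). The part of these libraries in the correlations was not tested. For Anxa6 the 9 values with the group means removed ran from −0.718, to S100a10, to 0.280, to Anxa1, with −0.604 to S100a6, −0.174 to Anxa2 and −0.146 to S100a11. These values describe the libraries and carry no test.

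The gene most like each member was sought among 10041 genes with a mean of at least 5 TPM, by the correlation over the 12 libraries. For S100a6 it was Lta, lymphotoxin alpha (r = 0.994), and for Lgals1 it was Gmnn, geminin, an inhibitor of replication licensing (r = 0.991), with Vim, vimentin, next (r = 0.989). For Anxa1 it was Sae1, a subunit of the SUMO-activating enzyme (r = 0.990), for Anxa2 Hmga1, a chromatin protein (r = 0.985), for Lgals3 Pa2g4 (r = 0.987) and for S100a4 Fabp5, a fatty acid-binding protein (r = 0.983). Anxa5 was most like Mdh1, malate dehydrogenase (r = 0.979), Anxa6 like Tmem50b (r = 0.972) and S100a10 like Rpl37, a ribosomal protein (r = 0.960). S100a11 had the lowest value, 0.880, with Mir199a-1. Group means were not removed here, so differences between the groups enter these values. They were picked as the highest among many genes and carry no test.

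Other genes of the 3 families, 29 in a fixed list, were followed beside the 10. Of these 28 were in the table and 12 were tested. In EV+IL-2 against EV no IL-2, 3 of the 12 were higher and 1 lower, with a median log2 fold change of 0.33, beside 13.3% of all genes called and a median of −0.014. S100a1 went from 16.0, 15.6 and 11.9 scaled TPM without IL-2 to 58.3, 69.4 and 63.9 with it (log2 fold change 2.07, adjusted p = 7.91e-06), and was at 18.7 to 21.4 in 3A10t and 13.5 to 18.8 in 1G12t. Its neighbour S100a13 rose from a mean of 188 to 293 (log2 fold change 0.64, adjusted p = 0.0157). Lgals3bp, a secreted glycoprotein that binds galectin-3, rose from 44.0 to 100.4 (log2 fold change 1.17, adjusted p = 0.000223). Lgals4 fell from 18.6 to 12.3 (log2 fold change −0.55, adjusted p = 0.00692).

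In neither tethered group did any of the 12 pass against EV no IL-2 (0 of 12 each), and 0 did in 3A10t against 1G12t. Of all genes tested, 2.05% passed in 3A10t and 0.0199% in 1G12t against EV no IL-2, and 4.27% in 3A10t against 1G12t. Against EV+IL-2, 4 of the 12 were lower and 1 higher in 3A10t, beside 23.4% of all genes called, and likewise 4 and 1 in 1G12t, beside 20.6%. Lgals4 was higher and S100a1 and Lgals3bp were lower in both, Anxa11 (log2 fold change −0.47) and Lgalsl (−0.98) were lower in 3A10t, and S100a13 (−0.57) and Anxa4 (−0.36) in 1G12t.

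The S100 genes of the cluster differed by their level. By lowest coordinate, S100a1 and S100a13 begin 92.7 and 89.3 kb before S100a4. S100a5, which lies between S100a4 and S100a6, had a mean of 0.043 to 0.396 scaled TPM in the 4 groups, and S100a3 one of 0.794 to 1.69. S100a8 and S100a9, whose proteins form calprotectin in myeloid cells, had means of 0 to 0.666 and 0.121 to 0.765.

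**Figure D4:**
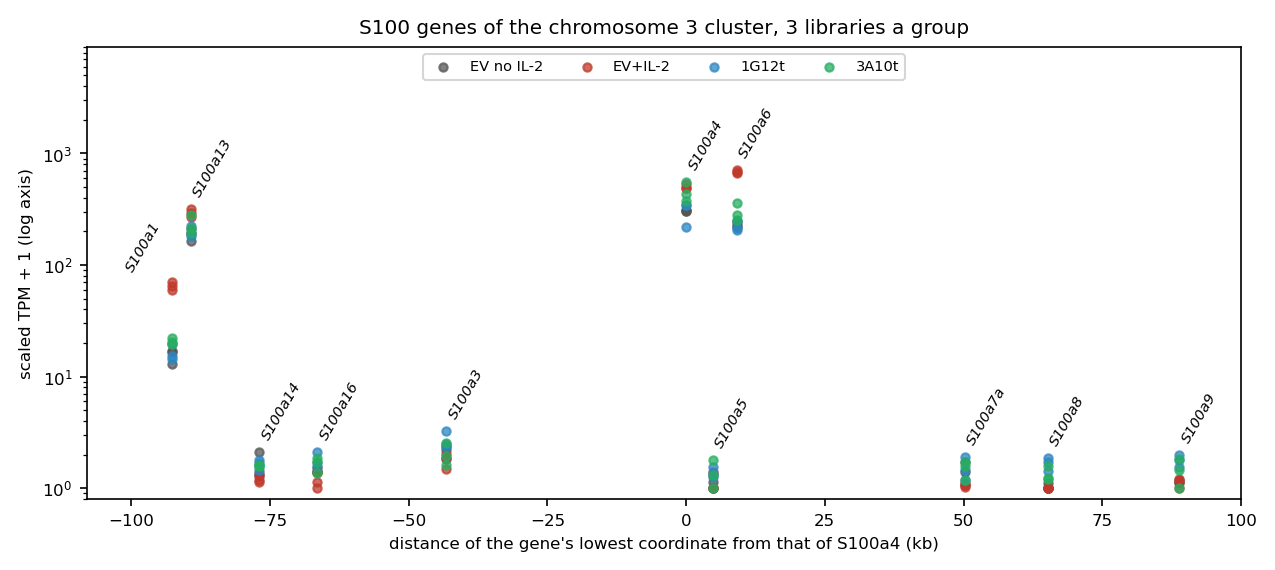
Scaled TPM + 1 (y axis, log scale) of the 11 S100 genes within 100 kb of S100a4, by the distance of their lowest coordinate from that of S100a4 (x axis, kb); each point is a library, coloured by group. S100a1, S100a13, S100a4 and S100a6 are expressed and highest on average in EV+IL-2, and the other 7 have group means between 0 and 1.69.

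A list of 18 binding partners and receptors had 13 genes tested, of which 1 was higher and 1 lower in EV+IL-2 against EV no IL-2, a share near the 13.3% of all genes called. Plgrkt, a plasminogen receptor, went from a mean of 113 to 142 scaled TPM (log2 fold change 0.32, adjusted p = 0.0148). Lag3, an inhibitory receptor that galectin-3 binds, was at 13.1, 12 and 15.4 without and at 5.15, 4.18 and 2.88 with IL-2 (log2 fold change −1.54, adjusted p = 0.00683). In 3A10t against EV no IL-2 1 was lower, Ptprc, the CD45 phosphatase and a ligand of galectin-1, from 677 to 452 (log2 fold change −0.59, adjusted p = 0.0423). In 1G12t against EV no IL-2 0 passed. Ptprc was also the 1 that passed in 3A10t against 1G12t (−0.67, adjusted p = 0.0296). Of all genes tested, 2.05%, 0.0199% and 4.27% passed in these 3 comparisons. Against EV+IL-2, 1 was higher (Lag3) and 1 lower (Ptprc) in 3A10t, and 1 higher (Lag3) and 2 lower (Plgrkt and Cacybp) in 1G12t, beside 23.4% and 20.6% of all genes called.

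Of a fixed list of 10 cytoskeletal and adhesion genes, all tested, 3 were higher and 1 lower in EV+IL-2 against EV no IL-2, beside 13.3% of all genes called. Vim rose from 403 to 644 scaled TPM (log2 fold change 0.68, adjusted p = 0.000184), Crip1, a LIM protein, from 1422 to 2308 (0.71, adjusted p = 0.00339) and Tagln2, an actin binder, from 360.5 to 547 (0.60, adjusted p = 0.00561). Actn1, which crosslinks actin, went from 3.96 to 1.03 (−1.28, adjusted p = 0.00358). In either tethered group against EV no IL-2, and between the tethered groups, 0 of the 10 passed. Of all genes tested, 2.05% passed in 3A10t and 0.0199% in 1G12t against EV no IL-2, and 4.27% between the tethered groups. Against EV+IL-2, 2 were lower (Vim and Itgb1) and 1 higher (Actn1) in 3A10t, beside 23.4% of all genes called, and 4 were lower (Vim, Crip1, Tagln2 and Capg) and 1 higher (Actn1) in 1G12t, beside 20.6%.

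Several of the 10 genes are abundant in myeloid cells, so markers of other cells were read in the same libraries. Of 8 myeloid markers 2 were tested and 0 passed in EV+IL-2 against EV no IL-2, beside 13.3% of all genes called. Lyz2 had means of 0.041 scaled TPM with and 0.198 without IL-2. The summed myeloid markers ran from 546 to 558 TPM in EV Tregs without and 504 to 544 in those with IL-2, 485 to 566 in 1G12t and 542 to 655 in 3A10t, nearly all of it Cst3, with means of 493 to 632. The 3 B cell markers summed to 8.48 to 14.1 TPM, the 2 CD8 T cell markers to 3.71 to 5.72 and the 3 NK cell markers to 0.09 to 2.47, and 0 of these genes were at 0 in every library. The 1 NK marker tested, Klrd1, was lower in EV+IL-2 (means 0.192 and 1.76). The stroma markers, mainly Pecam1, summed to 47.6 to 51.0 TPM in EV+IL-2 and 77.5 to 87.1 in EV no IL-2. Pecam1, the 1 stroma marker tested, was lower in EV+IL-2 (means 49.3 and 78.6 scaled TPM, log2 fold change −0.66, adjusted p = 0.0326). Col1a1, Col3a1 and Pdgfrb had means of 0.264, 0.021 and 0.094 scaled TPM in EV+IL-2 and 0.617, 0.185 and 0.185 in EV no IL-2. Of the 6 Treg markers 1 was higher and 0 lower in EV+IL-2 against EV no IL-2, a share near the 13.3% of all genes called. It was Il2ra, which codes for CD25 and is a known target of IL-2 (means 706 and 416). Without a test, 3 of the 6 had all 3 EV+IL-2 libraries above EV no IL-2, beside 19.6% of all genes. Another 2, Ctla4 and Cd4, had them below (log2 fold changes −0.21 and −0.27), beside 3014 of the 15043 genes tested. Against EV+IL-2, 2 of the 6 were lower in 3A10t and 1 in 1G12t, beside 23.4% and 20.6% of all genes called.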

How the data were processed

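RNA from 12 libraries was sequenced, 3 in each of 4 groups, with groups and replicate numbers taken from the sample labels. The table holds TPM as deposited by the authors, for 55228 symbols. Before deposit, the authors trimmed with Cutadapt 1.18, used STAR 2.5.3 for alignment to mm10 (GRCm38) and RSEM 1.3.0 to estimate expression. DESeq2 1.26 is also named in the submitters' processing notes, for tests on counts that were not used here. Because TPM hold no depth, the spread between libraries is the only error given. All columns were used (0 were left out), and 0 pairs of libraries were identical.

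Each library was divided by its median-of-ratios factor. The fit was limma 3.58.1 (lmFit and trended eBayes) in R 4.3.3 on log2 values after a pseudocount of 1, which understates changes of low genes, for the 15043 genes whose TPM averaged 1 or more. All 12 libraries entered 1 fit without a replicate block, and 6 comparisons were made. A call is a Benjamini-Hochberg adjusted p under 0.05 over all genes tested. Figures were drawn with Python 3.11.15 and matplotlib 3.10.9. Positions come from GENCODE M21, which held 53569 of the symbols and is not the release that the study names.

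The members, the lists and the tests were chosen with earlier results of these data known. The rule covered the 10 members, called genes of the lists and the 3 genes most like each member, of which the text gives the first, and for Lgals1 the first 2. S100a3, S100a5, S100a8, S100a9, Lyz2, Cst3, Klrd1, Pecam1, Col1a1, Col3a1 and Pdgfrb are given for their level, and Ctla4 and Cd4 for their direction. The pairs for gene ratios were chosen after their values were seen. The code was tested on simulated data.

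The labels tie each replicate number to a shared sort. Deviations from the group means correlated at 0.041 on average over the 18 same-number pairs of libraries (−0.11 to 0.15, 3 of them above 0.1) and at −0.020 over the 36 others. As alternatives, the pseudocount was set to 0.1 or 5, the filter was dropped or raised to an average TPM of 5, values were left as deposited or quantile normalized, and genes were limited to protein-coding ones. The replicate block, untrended eBayes, fits of just the 6 libraries compared, each library left out and the study's threshold were also run.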

Additional observations from a re-analysis of the deposited data

How the results depend on the processing

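TPM keep no depth, so low genes have no counting error here, and 3 cultures of 1 pool limit every group. The number of the 10 genes called in 3A10t against EV no IL-2 was 0, where 2.05% of all genes tested passed. It was 1 with protein-coding genes only (6.37% of all genes tested) and 1 at the study's threshold (9.5%). As libraries were left out it ran from 0 to 4, the 4 being without 3A10t replicate 1 (23.2%). In 3A10t against 1G12t the count was 2, where 4.27% of all genes tested passed. It was 0 with no filter (0.283%), after quantile normalization (3.19%), with eBayes without a trend (1.69%) and with only the 6 libraries compared (0.0735%). It was 1 with the TPM as deposited (9.28%) and 4 with a mean TPM of at least 5 (11.7%). It was 5 with protein-coding genes only (12%) and 5 at the study's threshold (12.3%). As libraries were left out it ran from 0 to 6, the 6 being without 3A10t replicate 1 (27.6%). The cause was not tested. The counts of the other 4 comparisons stayed within 1.5 times. Under the replicate block the counts were 6, 0, 0, 2, 4 and 7 for the 6 comparisons in the order reported. They stand beside 13.1%, 2.67%, 0.0199%, 6.56%, 24.7% and 20.9% of all genes tested. The block changed the call of no other member than Anxa6 in 3A10t against EV+IL-2.

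Directions that turned were those of small differences. With the TPM as deposited, which moved the median of all genes to −0.091 in 3A10t against EV no IL-2 and to −0.18 in 3A10t against 1G12t, S100a11 was at −0.089, Anxa1 at −0.085 and Anxa6 at −0.14 in the first of these and S100a11 at −0.023 and Anxa6 at −0.061 in the second, while S100a10 was at 0.037 in 1G12t against EV no IL-2 and S100a11 at 0.041 in 1G12t against EV+IL-2. After quantile normalization S100a10 was at −0.035 and Anxa6 at −0.16 in 3A10t against EV no IL-2, S100a4 at 0.032, S100a6 at 0.0018, S100a10 at 0.076 and Lgals1 at 0.025 in 1G12t against EV no IL-2, S100a10 at −0.11 and Anxa6 at −0.12 in 3A10t against 1G12t, and S100a11 at 0.066 and Anxa5 at 0.017 in 1G12t against EV+IL-2. S100a10 in 1G12t against EV no IL-2 was at 0.0021 with protein-coding genes only, and Anxa6 in 3A10t against EV no IL-2 at −0.010 with only the 6 libraries. As libraries were left out, log2 fold changes crossed 0 for S100a11 (−0.11 to 0.063) and Anxa5 (−0.052 to 0.039) in EV+IL-2 against EV no IL-2, for S100a11 (−0.0026 to 0.17) and Anxa6 (−0.080 to 0.14) in 3A10t against EV no IL-2, and for S100a4 (−0.16 to 0.16), S100a10 (−0.079 to 0.047), Lgals1 (−0.12 to 0.023) and Lgals3 (−0.29 to 0.074) in 1G12t against EV no IL-2. Over all genes, the calls in 3A10t against 1G12t were 196 higher and 446 lower as reported, 96 and 1300 with the TPM as deposited, 8 and 4 with only the 6 libraries, 1755 and 2384 without 3A10t replicate 1 and 10 and 37 without 1G12t replicate 3. Those in 3A10t against EV no IL-2 were 68 and 240 as reported, 53 and 446 with the TPM as deposited, 146 and 70 with no filter, 8 and 1 with only the 6 libraries and 1184 and 2285 without 3A10t replicate 1.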
